A study of Mus musculus with 20 samples.

Results

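The collagen genes of mouse embryonic skin were followed across sorted epidermal and dermal cells, leaving aside Col7a1, Col17a1 and Col18a1, which go with the anchoring complex of the epidermis. Members were all gene symbols in the count files made of Col, a number, the letter a and a number. That pattern found 44 of the 23432 symbols, and 41 remained. The symbols were chosen by name and not by their counts. By structure they comprise 11 fibrillar genes, 6 of type IV, 3 of types VIII and X, 6 of type VI, 9 fibril-associated genes, 3 transmembrane genes, the multiplexin Col15a1, and Col26a1 and Col28a1, which belong to none of these. RNA was sequenced in 12 libraries, 3 in each of 4 groups: E13 KO epidermis (genotype {delta}Np63 -GFP KI-KO, embryonic day 13), E13 Het epidermis ({delta}Np63 -GFP KI-Het, embryonic day 13), E9 Het epidermis (the same Het genotype, embryonic day 9) and E13 Het dermis (the same Het genotype, embryonic day 13). Every group therefore carries the GFP knock-in, the Het controls included, and the label names the delta-N product of Trp63 (the transcription factor p63 of stratified epithelia) as the one knocked out. From dissociated back skin, the GFP of the knock-in served to sort the epidermis, and surface staining for CD140a (the protein of Pdgfra) served to sort the dermis. Epidermal RNA was depleted of ribosomal RNA whereas dermal RNA was poly(A)-selected by oligo(dT), and the effects of tissue and of this preparation cannot be told apart. The labels do not say whether replicates came from separate embryos or from pools, and the p-values measure only the spread between these samples.

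Collagens are triple helices of 3 alpha chains, in which several genes can supply the chains of 1 molecule. Fibrillar collagens build the banded fibrils of the dermis, fibril-associated collagens sit on those fibrils, type VI forms beaded filaments around cells, and type IV forms the network of the basement membrane on which the basal epidermal cells rest. Fibroblasts are the main source of fibrillar collagens in skin, while type IV chains are made on both sides of the basement membrane.

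The 250 bases before the transcription start are printed for 6 members that behaved differently among the groups: Col3a1, the chain of the homotrimeric fibrillar type III collagen, at chr1:45311288-45311537 (plus strand); Col1a2, a chain of type I, at chr6:4505368-4505617 (plus strand); Col5a1, a chain of type V, which nucleates fibrils, at chr2:27886175-27886424 (plus strand); Col8a1, a chain of the short network collagen type VIII, at chr16:57754738-57754987 (minus strand); Col19a1, a fibril-associated collagen, at chr1:24587438-24587687 (minus strand); and Col4a5, a type IV chain, at chrX:141475169-141475418 (plus strand). Sequences and positions are those of RefSeq on GRCm38.p6, each read 5′ to 3′ along its gene. Each window precedes a listed start site, which need not be the outermost end of the gene. The Col19a1 window lies wholly inside its gene, whose span reaches 24587922. The windows of Col5a1 and Col4a5 run partly into their genes. Capitals mark the TATA box letters TATAAA, the CAAT box letters CCAAT and the GC box letters GGGCGG, each searched on both strands, and no match overlaps another in these windows.
Col3a1: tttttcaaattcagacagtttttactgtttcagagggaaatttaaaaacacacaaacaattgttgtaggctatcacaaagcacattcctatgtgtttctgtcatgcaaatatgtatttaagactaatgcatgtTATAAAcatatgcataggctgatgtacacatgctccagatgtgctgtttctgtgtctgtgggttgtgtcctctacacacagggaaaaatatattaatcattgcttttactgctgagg
Col1a2: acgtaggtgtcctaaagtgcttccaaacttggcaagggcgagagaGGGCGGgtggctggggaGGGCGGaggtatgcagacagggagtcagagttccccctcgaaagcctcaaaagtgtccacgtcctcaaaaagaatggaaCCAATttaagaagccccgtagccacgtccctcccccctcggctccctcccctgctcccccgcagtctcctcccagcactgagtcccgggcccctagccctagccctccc
Col5a1: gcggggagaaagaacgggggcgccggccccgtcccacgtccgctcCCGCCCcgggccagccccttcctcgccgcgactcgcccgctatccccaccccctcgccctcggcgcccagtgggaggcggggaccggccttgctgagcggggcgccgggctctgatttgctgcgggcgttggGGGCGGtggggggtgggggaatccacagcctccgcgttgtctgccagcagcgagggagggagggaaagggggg
Col8a1: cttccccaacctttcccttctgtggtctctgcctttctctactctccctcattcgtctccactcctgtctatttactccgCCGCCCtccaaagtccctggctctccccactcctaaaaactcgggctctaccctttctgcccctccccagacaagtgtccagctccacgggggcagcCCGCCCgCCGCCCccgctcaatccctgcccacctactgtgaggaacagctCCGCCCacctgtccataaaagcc
Col19a1: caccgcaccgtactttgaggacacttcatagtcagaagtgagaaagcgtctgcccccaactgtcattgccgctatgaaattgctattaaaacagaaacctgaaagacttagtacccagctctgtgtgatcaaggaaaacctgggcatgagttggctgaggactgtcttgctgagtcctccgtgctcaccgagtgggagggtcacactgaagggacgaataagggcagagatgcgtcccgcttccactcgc
Col4a5: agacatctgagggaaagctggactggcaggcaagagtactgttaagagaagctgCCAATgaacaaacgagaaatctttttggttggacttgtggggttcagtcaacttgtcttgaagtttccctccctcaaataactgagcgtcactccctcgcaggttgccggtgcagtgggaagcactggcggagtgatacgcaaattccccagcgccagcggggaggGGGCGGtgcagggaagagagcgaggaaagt

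A promoter window was at hand for 32 of the 41 genes. TATAAA stood in 4 of those 32, against 12.4% of 32851 RefSeq windows, CCAAT in 10, against 33.8%, and GGGCGG in 19, against 32.7%. Members were counted as genes with a match in any of their windows, while the percentages are of single windows. Col9a1 and Col6a2 had more than 1 window. Col3a1 had the most AT-rich window of the 6, with a GC content of 35.2%, no CpG and 1 TATAAA whose first base lies 117 bases before the start. Col5a1 was at the other end, with a GC content of 76.4%, 28 CpG and GGGCGG at 205 and 73 bases before the start; the median window had 52.4% GC and 6 CpG. Col1a2 held CCAAT at 109 bases and GGGCGG at 205 and 188 bases before its start. Col8a1 held GGGCGG at 170, 73, 66 and 23 bases. Col4a5 held CCAAT at 196 and GGGCGG at 30 bases. The Col19a1 window, which lies inside the gene, held none of the 3 motifs. These matches are letters in a window and were not tested as binding sites.

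Reads counted in genes numbered 3373819 to 7777808 in each epidermal library, while dermal libraries held 16931664 to 33386872. E13 KO replicate 3 and E13 Het replicate 1 detected the fewest genes (11275 and 10765), and the fewest collagen genes (25 and 24, against 30 to 40 in the other libraries). Levels are given as CPM, each gene's count relative to the library's TMM-scaled total and multiplied up to a common size. Trp63 had 23.0, 25.0 and 20.4 CPM in E13 KO epidermis, against 519.9, 611 and 454 CPM in E13 Het epidermis, and it had 279, 218 and 121 CPM in E9 Het epidermis and 0.462, 0 and 2.15 CPM in E13 Het dermis. Counts are per gene, so those left in KO cannot be assigned to delta-N or to other isoforms. Pdgfra had 43.7, 89.3 and 32.3 CPM in E13 KO epidermis, 25.5, 55.8 and 10.9 in E13 Het epidermis and 46.2, 20.3 and 25.7 in E9 Het epidermis, against 1013, 647 and 782 in E13 Het dermis, so the sort markers separated the tissues as labelled. Summed over 9 epidermal markers, the libraries held 2803 to 3766 CPM in E13 KO epidermis, 3235 to 4602 CPM in E13 Het epidermis, 1895 to 2121 CPM in E9 Het epidermis and 6.06 to 9.71 CPM in E13 Het dermis. Single markers ran in both directions between E13 KO and E13 Het epidermis. Krt5 had 44.3, 19.5 and 39.6 CPM in KO and 1293, 1032 and 1355 CPM in Het. Epcam had 525, 433 and 458 CPM in KO and 205, 187 and 225 CPM in Het. Means of Krt14, Krt15, Grhl3 and Tfap2a were also lower in KO, and those of Krt8, Krt18 and Cdh1 higher. Krt8 had 67.6, 21.7 and 627 CPM in Het and Krt18 had 29.4, 26.1 and 412 CPM, so replicate 3 stood far above its group. Cdh1 and Tfap2a overlapped between KO and Het. In these bulk samples fewer cells of a type and less RNA per cell cannot be told apart.

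Together the 41 genes took 0.391%, 0.495% and 0.350% of the gene counts in E13 KO epidermis and 0.272%, 0.429% and 0.361% in E13 Het epidermis. They took 0.202%, 0.203% and 0.204% in E9 Het epidermis and 4.61%, 2.51% and 3.51% in E13 Het dermis. The totals behind these shares include Rn45s, a ribosomal RNA gene. It took 11.2%, 30.7% and 19.1% of the gene counts in E13 Het dermis and 2.90% to 9.69% in epidermal libraries. Its part in the spread of the shares was not tested. The KO and Het shares at E13 overlap, every E13 epidermal share is above every E9 share, and every dermal share is above all the others. By class, the summed fibrillar level was 1543, 2598 and 1500.5 CPM in E13 KO epidermis, 782, 1934 and 771 CPM in E13 Het epidermis, 842, 789 and 917 CPM in E9 Het epidermis and 41386, 28824 and 33079 CPM in E13 Het dermis. Type IV sums were of like size across tissues and ages, with 881, 631 and 725 CPM in E13 KO epidermis, 726, 892 and 1227 CPM in E13 Het epidermis, 949.6, 1043 and 816 CPM in E9 Het epidermis and 1246, 1055 and 1015 CPM in E13 Het dermis. The fibril-associated class had 933, 879 and 764 CPM in E13 KO epidermis, 777, 1029 and 1222 CPM in E13 Het epidermis, 26.2, 37.0 and 122 CPM in E9 Het epidermis and 2120.1, 1309 and 1767 CPM in E13 Het dermis. Its E13 epidermal libraries all lie above its E9 libraries, while KO and Het overlap. Type VI was low in all epidermis, at 67.6, 243 and 20.7 CPM in E13 KO, 78.0, 158 and 26.7 CPM in E13 Het and 8.79, 40.3 and 21.8 CPM in E9 Het, against 6892, 4451 and 5127 CPM in E13 Het dermis.

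**Figure D1:**
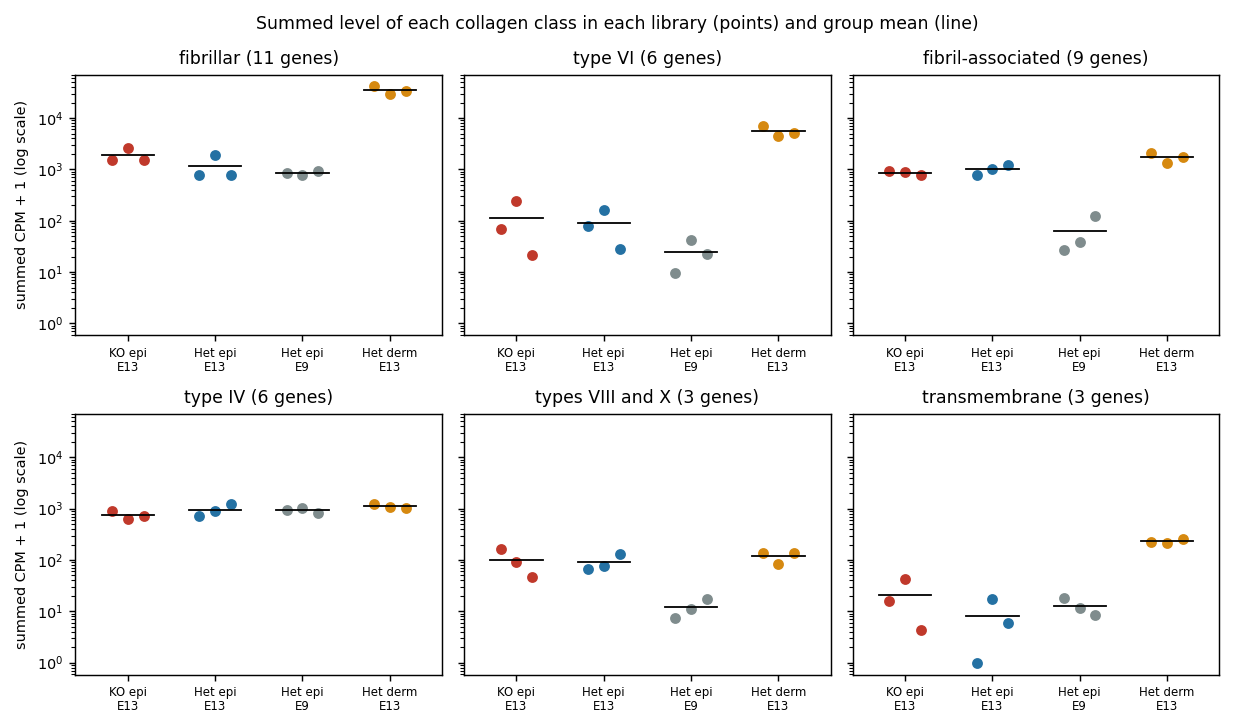
Summed level of 6 collagen classes in each library, as CPM + 1 on a log scale, with points for libraries and lines for group means. Type IV stays between 631 and 1246 CPM in all 12 libraries, whereas fibrillar and type VI sums are far higher in E13 Het dermis and the fibril-associated sum is lowest in E9 Het epidermis.

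The first comparison asks whether losing p63 changed collagen expression in E13 epidermis. No collagen gene passed the threshold of an adjusted p under 0.05: of 34 members tested 0 were called, while 2.20% of the 13052 genes tested were called (edgeR quasi-likelihood test). At an unadjusted p under 0.05, 4 members were found, which is 11.8% of those tested, against 11.4% of all genes. At an adjusted p under 0.05, DESeq2 called 3 members and limma voom 2. Both also called more genes in all than the main test, as given under the dependence on processing. The median log2 fold change was 0.46 over the members tested and 0.03 over all genes tested. The smallest absolute log2 fold change called among all genes was 0.48. Of the 34 members, 23 had a log2 fold change above 0 (67.6%), against 51.8% of all genes. The higher and lower calls were 0.835% and 1.36% of all genes. KO and Het libraries were fully separated for 5 members, 3 of them higher in KO (10.6% of all genes tested) and 2 lower (9.36%). These 5 are Col3a1, Col14a1 and Col4a5, higher in every KO library, and Col27a1 and Col4a1, lower in every KO library. The other 29 members tested overlapped between KO and Het.

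Col27a1, a fibrillar collagen known from cartilage, had 6.06, 24.0 and 10.3 CPM in E13 KO epidermis, against 57.2, 66.7 and 36.4 CPM in E13 Het epidermis. All KO libraries lie below all Het libraries, and the fit gave a log2 fold change of -1.99 ± 0.50 at an adjusted p of 0.0562. The adjusted p was 0.00132 with DESeq2, 0.0188 with limma voom, 0.00627 without the filter on low counts, 0.0338 with all 12 libraries fitted, 0.0427 without E13 Het replicate 3 and 0.0160 without E13 KO replicate 2; over 16 alternatives it ran from 0.00132 to 0.207, under 0.05 in 7. Col27a1 also spans the counted microRNA gene Mir455. Col4a1, the major basement membrane chain, had 299, 196 and 217 CPM in E13 KO epidermis and 319, 358 and 459 CPM in E13 Het epidermis. Its difference was small (log2 fold change of -0.69 ± 0.18 at an adjusted p of 0.0766), with 4 of 16 alternatives under the threshold and an adjusted p from 0.00578 (DESeq2) to 0.315. It was 0.0109 with limma voom, 0.0186 without the filter and 0.0358 without E13 KO replicate 1.

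Col3a1 had 593, 925 and 848 CPM in E13 KO epidermis, against 75.7, 379 and 75.4 CPM in E13 Het epidermis. Every KO library exceeded every Het library, and among the Het libraries replicate 2 stood far above the other two (log2 fold change of 2.15 ± 0.72 at an adjusted p of 0.284). Without E13 Het replicate 2 the log2 fold change was 3.35 with an adjusted p of 0.00325, and without replicate 2 of both groups it was 3.23 with an adjusted p of 0.00998. DESeq2 gave 0.0395, and over 16 alternatives the adjusted p ran from 0.00325 to 0.568. Expressed per dermal mean, Col3a1 stood at 4.56%, 7.11% and 6.52% in KO libraries, against 0.582%, 2.92% and 0.580% in Het libraries. For Col1a1, the other abundant fibrillar chain, the same quantity was 1.62%, 5.49% and 1.01% in KO libraries, against 0.631%, 4.74% and 0.477% in Het libraries. Genes of dermal fibroblasts ran in both directions. Twist1, a mesenchymal transcription factor, stood at 9.93%, 16.9% and 3.13% of its dermal mean in KO libraries, against 2.42%, 6.15% and 0.622% in Het libraries, and Pdgfra stood at 5.36%, 11.0% and 3.97% in KO libraries, against 3.14%, 6.86% and 1.34% in Het libraries. The proteoglycan Dcn stood at 0.954%, 3.35% and 1.73% in KO libraries, against 1.72%, 7.81% and 3.98% in Het libraries, and the proteoglycan Lum at 0.277%, 1.79% and 0% in KO libraries, against 0%, 0.913% and 0.436% in Het libraries. KO and Het overlap for all 4, and none passed the test. In E13 KO replicate 3, the library with the fewest counts, Lum, Col6a1, Col23a1 and Col26a1 had no count, while Dcn was at 21.2 CPM, Prrx1 at 18.4 CPM and Twist1 at 11.1 CPM. Over the whole list of 15 dermal mesenchyme markers, 11 were tested, with a median log2 fold change of 0.57. None was called higher and 1 lower in KO (Fbln1, log2 fold change of -1.17 ± 0.24 at an adjusted p of 0.019, lost without 3 of the 6 libraries, highest 0.102). Their summed level was 691 to 902 CPM in KO libraries and 704 to 939 CPM in Het libraries, of which Postn, a matrix protein of the periosteum and dermis, supplied the most; without it the sums were 216 to 428 CPM in KO libraries and 252 to 456 CPM in Het libraries. Their part in the Col3a1 values was not tested.

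Col14a1, a fibril-associated collagen of the dermis, had 65.3, 87.3 and 59.3 CPM in E13 KO epidermis and 27.1, 57.9 and 21.1 CPM in E13 Het epidermis. The groups do not overlap but the highest Het library is close to the lowest KO library (log2 fold change of 0.99 ± 0.54 at an adjusted p of 0.553). Col4a5 had 187, 182 and 206 CPM in KO and 125, 170.3 and 172 CPM in Het (log2 fold change of 0.29 ± 0.24 at an adjusted p of 0.742). Among the members with high counts, Col5a1 had 266, 339.8 and 291 CPM in KO and 302, 371 and 263 CPM in Het. Its log2 fold change was -0.07 ± 0.17, the smallest standard error of the members tested. Col5a2, its chain partner, had 242, 303 and 103 CPM in KO and 148, 295 and 234 CPM in Het (log2 fold change of -0.07 ± 0.36 at an adjusted p of 0.98). For both type V chains the KO and Het values overlap. Col12a1, a fibril-associated collagen of developing skin and tendon, had 762, 638 and 601 CPM in KO and 605, 778 and 1105 CPM in Het (log2 fold change of -0.32 ± 0.98 at an adjusted p of 0.962). Col19a1 had 71.4, 94.4 and 93.4 CPM in KO and 122, 154 and 79.2 CPM in Het. Col8a1 had 127, 73.6 and 31.6 CPM in KO and 64.4, 62.1 and 95.2 CPM in Het. Both overlap between the groups, with adjusted p = 0.755 for Col19a1 and 0.991 for Col8a1. Col11a1, a fibrillar chain that limits fibril width in cartilage, had 74.4, 99.5 and 39.8 CPM in KO and 47.7, 56.9 and 39.2 CPM in Het (log2 fold change of 0.56 ± 0.30 at an adjusted p of 0.55). Markers of neurons differed in sum between these groups, their 8 genes holding 97.8 to 173 CPM in KO libraries and 1.81 to 31.0 CPM in Het libraries, with 1 of 7 tested genes higher. That gene was Map2, whose call was lost without 4 of the 6 libraries (highest adjusted p 0.151) and without the filter (0.0984). Without Map2 the sums were 50.8 to 53.0 CPM in KO libraries and 0 to 18.3 CPM in Het libraries. Their part in the collagen values was not tested.

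The type I and type VI chains were spread widely within both E13 epidermal groups, and KO and Het overlapped for each of those named here. Col1a1 had 139, 470.2 and 86.4 CPM in KO and 54.0, 405 and 40.9 CPM in Het (log2 fold change of 0.46 ± 1.08 at an adjusted p of 0.947). Col1a2 had 145, 355 and 104 CPM in KO and 72.6, 299 and 72.2 CPM in Het (log2 fold change of 0.43 ± 0.67 at an adjusted p of 0.914). The type VI chains were low. Col6a1 had 22.0, 59.8 and 0 CPM in KO and 12.9, 38.2 and 8.17 CPM in Het. Col6a2 had 23.8, 52.4 and 8.28 CPM in KO and 16.5, 30.9 and 8.17 CPM in Het. Col6a3 had 19.1, 113 and 6.99 CPM in KO and 48.6, 81.0 and 5.96 CPM in Het. The adjusted p was 0.964 for Col6a1, 0.912 for Col6a2 and 0.998 for Col6a3. Col16a1 had 12.4, 28.9 and 5.17 CPM in KO and 7.46, 20.8 and 8.34 CPM in Het, Col23a1 had 10.9, 26.7 and 0 CPM in KO and 0, 9.51 and 2.72 CPM in Het. Col26a1 had 13.3, 28.2 and 0 CPM in KO and 1.13, 14.9 and 2.89 CPM in Het. In each of these replicate 2 was the highest library of its group. Col4a2, the partner of Col4a1, had 309, 185 and 221 CPM in KO and 261, 294 and 525 CPM in Het, with 1 KO library inside the Het range (log2 fold change of -0.61 ± 0.28 at an adjusted p of 0.435). Col4a6 had 79.1, 66.1 and 80.5 CPM in KO and 20.6, 68.1 and 55.0 CPM in Het (log2 fold change of 0.64 ± 0.40 at an adjusted p of 0.625). Col2a1 had 61.1, 56.0 and 12.2 CPM in KO and 17.6, 42.1 and 5.79 CPM in Het (log2 fold change of 0.96 ± 0.75 at an adjusted p of 0.75), and Col24a1, Col9a1 and Col9a2 stayed under 9 CPM in every library of both groups.

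**Figure D2:**
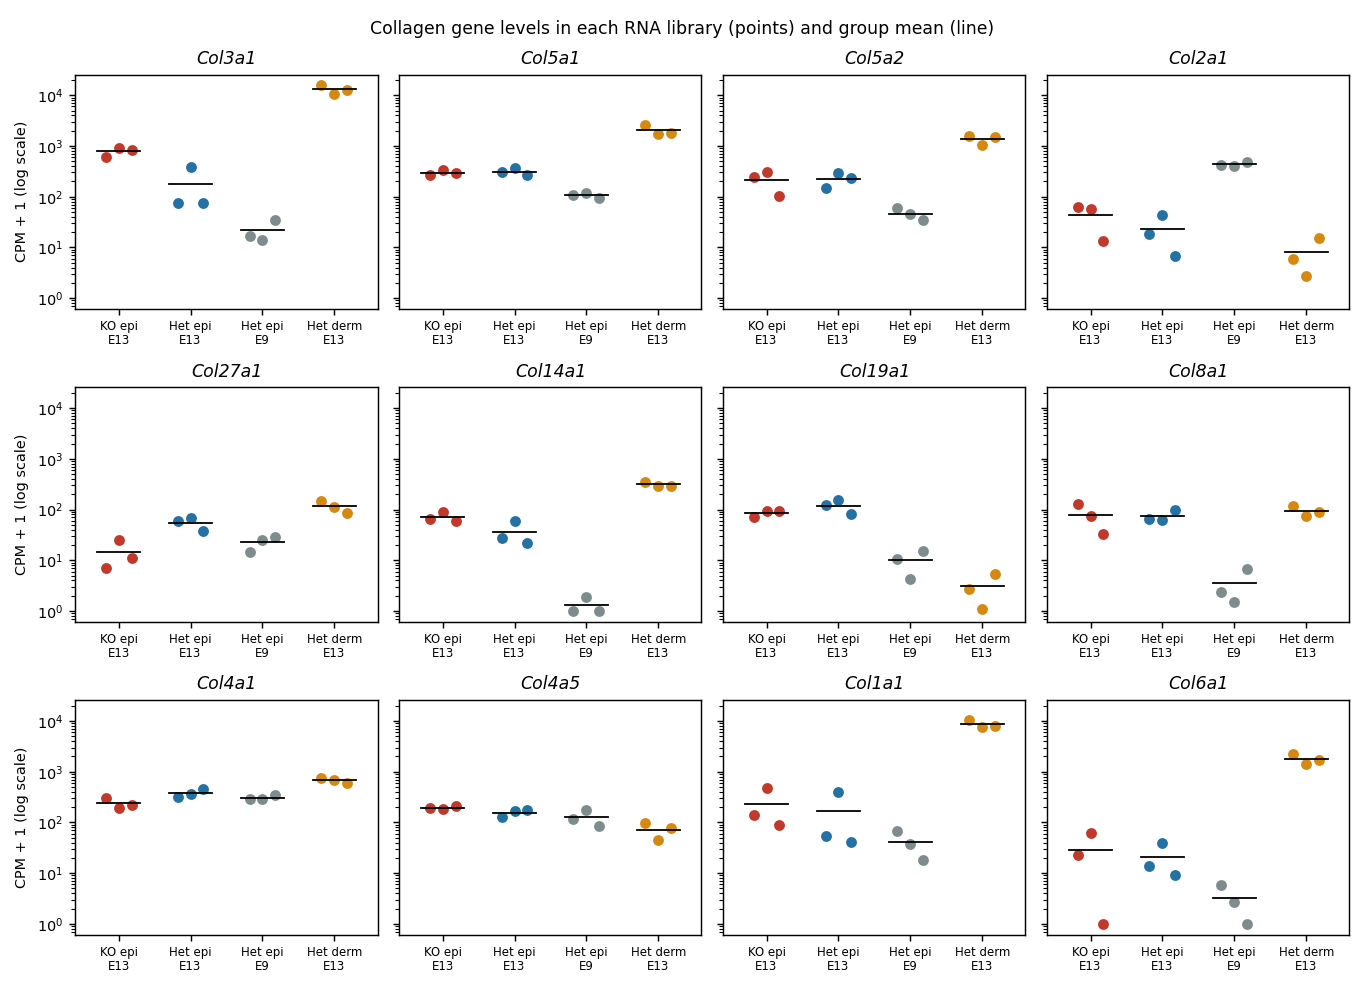
Levels of 12 collagen genes in each library, as CPM + 1 on a log scale, with points for libraries and lines for group means. Col3a1 lies between 593 and 925 CPM in E13 KO epidermis and between 75.4 and 379 CPM in E13 Het epidermis; Col14a1, Col19a1 and Col8a1 are lowest or near 0 in E9 Het epidermis, except that Col19a1 is lower still in E13 Het dermis, and Col2a1 is highest in E9 Het epidermis.

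Between E9 and E13, collagen genes of several classes rose in Het epidermis, and 1 fell. Of 34 members tested 6 were called (17.6%), against 7.29% of all genes tested. The 5 higher members (4.77% of all genes tested were higher) were Col5a1, Col5a2, Col14a1, Col19a1 and Col8a1, and the lower one (2.53% of all genes were lower) was Col2a1. The median log2 fold change was 1.33 over the members tested and -0.00 over all genes tested. The ages were fully separated for 15 members, 12 higher (15.0% of all genes tested) and 3 lower (14.0%) at E13. At an unadjusted p under 0.05 there were 12 members, against 19.7% of all genes, and 23 members had a log2 fold change above 0, against 49.9%. By class, 2 of 11 fibrillar genes rose and 1 fell, 2 of 8 tested fibril-associated genes rose, 1 of 2 tested genes of types VIII and X rose, and none of 5 tested type IV, 4 tested type VI or 2 tested transmembrane genes was called.

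Both type V chains, whose product nucleates fibrils of type I and III collagen, rose. Col5a1 had 302, 371 and 263 CPM in E13 Het epidermis, against 105, 119 and 93.3 CPM in E9 Het epidermis (a 2.96-fold difference, log2 fold change 1.57 ± 0.17, adjusted p = 4.97e-05). Col5a2 had 148, 295 and 234 CPM at E13, against 58.2, 43.7 and 33.9 CPM at E9 (log2 fold change of 2.32 ± 0.38 at an adjusted p of 0.00404). The lowest E13 library was above the highest E9 library for both chains. The type I chains showed no such separation. Col1a1 had 54.0, 405 and 40.9 CPM at E13 and 66.4, 37.0 and 17.4 CPM at E9 (log2 fold change of 2.04 ± 1.14 at an adjusted p of 0.418). Col1a2 had 72.6, 299 and 72.2 CPM at E13 and 78.9, 89.3 and 131 CPM at E9 (log2 fold change of 0.57 ± 0.67 at an adjusted p of 0.752). Replicate 2 of E13 Het is the high library for both. Col3a1 had 75.7, 379 and 75.4 CPM at E13 and 15.9, 13.2 and 33.7 CPM at E9. All E13 libraries exceeded all E9 libraries, but the test was not passed (log2 fold change of 3.10 ± 0.77 at an adjusted p of 0.0641); without E13 Het replicate 2 the log2 fold change was 1.89 and the adjusted p 0.0146, and the adjusted p ran from 0.000487 (DESeq2) to 0.221 over 16 alternatives.

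The fibril-associated class held the largest log2 fold change of the members, that of Col14a1. Col14a1 had 27.1, 57.9 and 21.1 CPM in E13 Het epidermis, against 0, 0.881 and 0 CPM in E9 Het epidermis, where replicate 2 held 5 reads and the other libraries none (log2 fold change of 6.81 ± 0.80 at an adjusted p of 0.000129). Col19a1, a collagen known from basement membrane zones and developing muscle, had 122, 154 and 79.2 CPM at E13, against 9.79, 3.35 and 14.4 CPM at E9 (log2 fold change of 3.71 ± 0.43 at an adjusted p of 0.000133). In both genes the lowest E13 library is well above the highest E9 library. Col12a1 had 605, 778 and 1105 CPM at E13, against 2.55, 9.51 and 77.5 CPM at E9. Replicate 4 at E9 stood above the other E9 libraries. It also held 273 CPM of skeletal muscle markers, against 33.1 and 36.7 CPM in the other E9 libraries, and 61.9 CPM of erythroid markers, against 0 and 0.284 CPM, and their part in the Col12a1 value was not tested. For Col12a1 the test was not passed (log2 fold change of 4.84 ± 1.17 at an adjusted p of 0.0647). Without E9 Het replicate 4 the log2 fold change was 7.14 and the adjusted p 0.00032, and it ran from 0.00011 (DESeq2) to 0.227 over 16 alternatives, under 0.05 in 5. Col8a1 had 64.4, 62.1 and 95.2 CPM at E13, against 1.42, 0.528 and 5.73 CPM at E9 (a 30.7-fold difference, log2 fold change of 4.94 ± 0.75 at an adjusted p of 0.00236). The other tested member of its class, Col8a2, overlapped between the ages, with 0, 12.2 and 33.9 CPM at E13 and 5.11, 9.69 and 10.3 CPM at E9 (log2 fold change of 0.88 ± 1.12 at an adjusted p of 0.77).

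Col2a1, the fibrillar chain of cartilage and notochord, fell to 17.6, 42.1 and 5.79 CPM in E13 Het epidermis, against 419, 399 and 486 CPM in E9 Het epidermis (log2 fold change of -4.29 ± 0.82 at an adjusted p of 0.0237). The groups are far apart, but the call was lost without E9 Het replicate 1 (adjusted p = 0.06), E9 Het replicate 2 (0.0683) or E13 Het replicate 1 (0.0916), and without replicate 2 of both E13 epidermal groups (0.0538), and over 16 alternatives it ran from 9.57e-07 to 0.0916. Among markers of cartilage and notochord, Hapln1 fell as well. Of the other markers with counts at E9, Sox9, Sox5, Matn3, Shh, Lect1 and T had lower means at E13 and Sox6 a higher one. The median log2 fold change of the tested markers was -1.47. The list summed to 169 to 341 CPM in E13 Het libraries and 1027 to 1344 CPM in E9 Het libraries, and 7 of its 14 genes were tested, with 1 higher (Sox6) and 1 lower (Hapln1). Without Hapln1 the sums were 169 to 314 CPM at E13 and 142 to 179 CPM at E9. Within them Sox6 held 141, 197 and 197 CPM at E13 and 85.1, 93.9 and 36.5 CPM at E9. Hapln1, which links hyaluronan to proteoglycans in cartilage, had 0.226, 11.0 and 27.4 CPM at E13, against 1072, 1165 and 853 CPM at E9 (log2 fold change of -6.29 ± 0.98 at an adjusted p of 0.0123; 0.0624 without E13 Het replicate 2). At E9 6 of the 14 genes had no count in any library (Acan, Matn1, Matn4, Comp, Epyc and Noto). Of the rest, Sox9, the transcription factor of cartilage, had 27.8, 19.3 and 95.2 CPM at E13 and 39.1, 55.0 and 71.8 CPM at E9. Sox5 had 0, 4.20 and 20.4 CPM at E13 and 14.2, 16.9 and 37.8 CPM at E9. Matn3 had 0, 0 and 0 CPM at E13 and 1.99, 5.81 and 14.7 CPM at E9, Shh had 0, 4.57 and 0.511 CPM at E13 and 1.99, 5.99 and 11.2 CPM at E9, and the notochord gene T was at 1.94 CPM in E9 replicate 2. The part of these genes in the Col2a1 difference was not tested. The other cartilage chains were low: Col9a1 had 0, 1.48 and 0 CPM at E13 and 3.55, 4.76 and 12.4 CPM at E9. Col11a2 had 0.904, 9.14 and 3.92 CPM at E13 and 0.709, 1.06 and 2.52 CPM at E9. Neither passed the test. The 15 dermal mesenchyme markers summed to 704 to 939 CPM in E13 Het libraries and 178 to 267 CPM in E9 Het libraries. Without Postn, which made most of that difference, they summed to 252 to 456 CPM at E13 and 163 to 252 CPM at E9. The ages then overlap only narrowly, with E13 Het replicate 1 at 252.06 CPM and E9 Het replicate 4 at 252.23 CPM. Of 11 tested, 3 were higher and 1 lower at E13, with a median log2 fold change of 1.23. Among the 15 markers, 6 (Twist2, Lum, Dcn, Dpt, Tcf21 and Thy1) had no count in any E9 Het library. Their part in the rise of Col5a1, Col5a2 and Col14a1 was not tested.

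Type IV genes, the basement membrane chains, did not pass the test between the ages. Col4a1 had 319, 358 and 459 CPM in E13 Het epidermis and 286, 286 and 346 CPM in E9 Het epidermis (log2 fold change of 0.32 ± 0.18 at an adjusted p of 0.394). Col4a2 had 261, 294 and 525 CPM at E13 and 477, 448 and 323 CPM at E9 (log2 fold change of -0.20 ± 0.27 at an adjusted p of 0.787). Col4a5 had 125, 170.3 and 172 CPM at E13 and 116, 175 and 84.2 CPM at E9. Col4a6, which shares the locus, had 20.6, 68.1 and 55.0 CPM at E13 and 70.3, 133 and 55.7 CPM at E9. The ages overlap for all 4 chains. Col4a3, found in specialised basement membranes of kidney and lung, was at 0 to 9.70 CPM in E13 Het epidermis and 0.528 to 7.11 CPM in E9 Het epidermis. Among type VI chains, Col6a2 came nearest to the threshold, with 16.5, 30.9 and 8.17 CPM at E13 and 3.97, 3.17 and 0 CPM at E9 (log2 fold change of 2.92 ± 0.99 at an adjusted p of 0.104). Col6a1 had 12.9, 38.2 and 8.17 CPM at E13 and 4.82, 1.76 and 0 CPM at E9. Col6a3 had 48.6, 81.0 and 5.96 CPM at E13 and 0, 35.4 and 17.2 CPM at E9. Col27a1 had 57.2, 66.7 and 36.4 CPM at E13 and 13.8, 24.3 and 28.2 CPM at E9 (log2 fold change of 1.28 ± 0.49 at an adjusted p of 0.146). Col11a1 had 47.7, 56.9 and 39.2 CPM at E13 and 77.7, 60.2 and 82.5 CPM at E9 (log2 fold change of -0.61 ± 0.31 at an adjusted p of 0.299). Both are separated between the ages, Col27a1 higher and Col11a1 lower in every E13 library, without passing the test. Col16a1 had 7.46, 20.8 and 8.34 CPM at E13 and 5.96, 5.81 and 0 CPM at E9, Col23a1 had 0, 9.51 and 2.72 CPM at E13 and 9.08, 7.93 and 7.34 CPM at E9. Col26a1 had 1.13, 14.9 and 2.89 CPM at E13 and 7.38, 12.3 and 23.8 CPM at E9. None of these 3 passed the test.

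**Figure D3:**
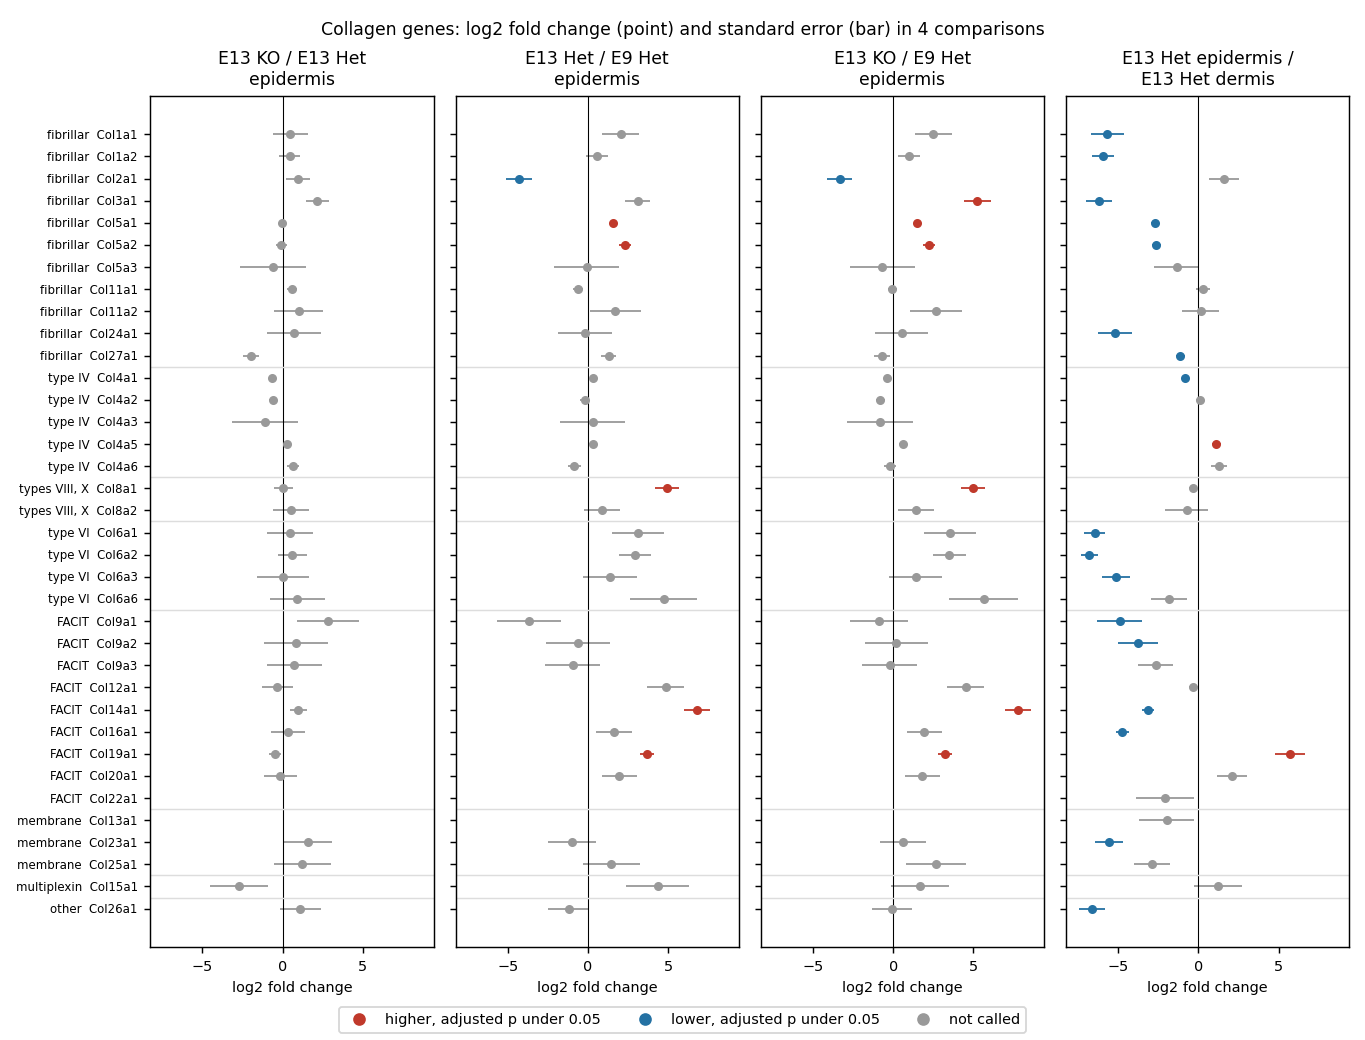
Log2 fold change of the collagen genes tested in each of the 4 comparisons, grouped by class, with bars of 1 standard error. None is called between E13 KO and E13 Het epidermis, 6 and 7 are called against E9 Het epidermis, and 17 are lower and 2 higher in E13 Het epidermis than in E13 Het dermis.

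KO epidermis at E13 was also set against Het epidermis at E9, which shares its E9 libraries with the comparison by age, so the 2 sets of values are not independent. Of 34 members tested 7 were called (20.6%), against 7.67% of all genes tested, 6 higher (4.62% of all genes) and 1 lower (3.05%). The median log2 fold change was 1.40 over the members and 0.01 over all genes tested, and 23 members lay above 0, against 50.8% of all genes. The groups were fully separated for 16 members, 14 higher (16.7% of all genes tested) and 2 lower (15.3%), and 12 members had an unadjusted p under 0.05, against 21.0% of all genes. The 5 members higher in the comparison by age were among the 6, Col5a2 with an adjusted p from 5.61e-11 to 0.0513 over 16 alternatives. Side by side, KO against E9 and Het against E9 gave log2 fold changes of 7.80 and 6.81 for Col14a1, 3.24 and 3.71 for Col19a1, 1.49 and 1.57 for Col5a1, 2.24 and 2.32 for Col5a2 and 4.99 and 4.94 for Col8a1. The direct difference between KO and Het for these 5 genes is the one given above, and none passed that test. The sixth was Col3a1 (log2 fold change of 5.25 ± 0.84 at an adjusted p of 0.0119), with 593, 925 and 848 CPM in KO, against 15.9, 13.2 and 33.7 CPM at E9. Its call was lost without E9 Het replicate 1 (adjusted p = 0.0681) or replicate 2 (0.0685), over a range of 3.81e-11 to 0.0685 in 16 alternatives. Col2a1 was lower, at 61.1, 56.0 and 12.2 CPM in KO, against 419, 399 and 486 CPM at E9 (log2 fold change of -3.33 ± 0.78 at an adjusted p of 0.0475). That call was lost on leaving out any 1 of the 6 libraries, with adjusted p from 0.0654 without E13 KO replicate 3 to 0.142 without E13 KO replicate 2, and 7 of 16 alternatives kept it. Hapln1 had 93.5, 71.7 and 71.9 CPM in KO, against 1072, 1165 and 853 CPM at E9, and the cartilage and notochord list summed to 158 to 189 CPM in KO, against 1027 to 1344 CPM at E9. Of its 7 tested genes none was called, Hapln1 itself at an adjusted p of 0.0508. Of the 15 dermal mesenchyme markers 11 were tested, with 2 higher and 0 lower in KO and a median log2 fold change of 1.84. They summed to 691 to 902 CPM in KO, against 178 to 267 CPM at E9. Without Postn the sums were 216 to 428 CPM in KO and 163 to 252 CPM at E9. Their part in the collagen differences was not tested. Col6a2 narrowly missed, with 23.8, 52.4 and 8.28 CPM in KO and 3.97, 3.17 and 0 CPM at E9 (log2 fold change of 3.50 ± 1.01 at an adjusted p of 0.0528), and 6 of 16 alternatives called it, with adjusted p from 0.000413 to 0.362. Col12a1 had 762, 638 and 601 CPM in KO and 2.55, 9.51 and 77.5 CPM at E9 (log2 fold change of 4.52 ± 1.16 at an adjusted p of 0.0719), with adjusted p from 0.000237 to 0.242.

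Set against the dermis of the same age and genotype, 7 of 11 fibrillar, 3 of 4 tested type VI and 4 of 9 fibril-associated genes were lower in E13 Het epidermis, while Col19a1 and Col4a5 were higher. Of 35 members tested 19 were called (54.3%), against 34.7% of all 12975 genes tested: 17 were lower (18.2% of all genes) and 2 higher (16.5%). The median log2 fold change was -2.10 over the members and -0.13 over all genes tested, and 9 members lay above 0, against 45.6% of all genes. The tissues were fully separated for 23 members, 20 lower (31.2% of all genes tested) and 3 higher (24.8%), and 22 members had an unadjusted p under 0.05, against 44.7% of all genes. With raw library totals instead of TMM scaling the median of all genes moved to 0.30, and the calls were then 3156 higher and 1438 lower genes, against 2140 and 2364 with TMM scaling. Col27a1, Col4a1 and Col9a2 were then not called (adjusted p = 0.121, 0.160 and 0.0572), and Col4a6 was (0.0311).

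The 3 main fibrillar chains of dermis were at a few percent or less in epidermis. Col3a1 had 75.7, 379 and 75.4 CPM in E13 Het epidermis, against 15789, 10429 and 12802 CPM in E13 Het dermis (log2 fold change of -6.20 ± 0.80 at an adjusted p of 0.00137). Col1a1 had 54.0, 405 and 40.9 CPM in epidermis, against 10277, 7542 and 7854 CPM in dermis (log2 fold change of -5.68 ± 1.0 at an adjusted p of 0.0052). Col1a2 had 72.6, 299 and 72.2 CPM in epidermis, against 10785, 7833 and 8753 CPM in dermis (log2 fold change of -5.95 ± 0.70 at an adjusted p of 0.000939). For all 3 the tissues do not overlap, and epidermal replicate 2 is the highest epidermal library. The type V chains differed less. Col5a1 had 302, 371 and 263 CPM in epidermis, against 2619, 1713 and 1839 CPM in dermis (log2 fold change of -2.73 ± 0.22 at an adjusted p of 8.72e-05). Col5a2 had 148, 295 and 234 CPM in epidermis, against 1565, 1067 and 1524 CPM in dermis (log2 fold change of -2.63 ± 0.29 at an adjusted p of 0.000363). As a percentage of the dermal mean, the E13 Het epidermal libraries stood at 14.7%, 18% and 12.8% for Col5a1 and 10.7%, 21.3% and 16.9% for Col5a2. The same quantity was 0.631%, 4.74% and 0.477% for Col1a1, so the epidermal share of the type V chains exceeded that of Col1a1 in every library. Col24a1, a fibrillar collagen of bone and cornea, had 0, 8.77 and 0.511 CPM in epidermis, against 150.2, 107 and 128 CPM in dermis (log2 fold change of -5.22 ± 1.06 at an adjusted p of 0.00927; 0.0565 without the filter, the highest of 15 alternatives from 0.000192). Col27a1 had 57.2, 66.7 and 36.4 CPM in epidermis, against 147, 113 and 86.1 CPM in dermis (log2 fold change of -1.12 ± 0.28 at an adjusted p of 0.0161; lost without dermal replicate 1 at 0.0787 or 2 at 0.0628, over a range of 0.00316 to 0.121 in 15 alternatives).

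Of 4 tested type VI chains 3 were lower in epidermis. Col6a1 had 12.9, 38.2 and 8.17 CPM in E13 Het epidermis, against 2261, 1409 and 1679 CPM in E13 Het dermis (log2 fold change of -6.48 ± 0.65 at an adjusted p of 0.000511), Col6a2 had 16.5, 30.9 and 8.17 CPM, against 2570.3, 1705 and 2011 CPM (log2 fold change of -6.82 ± 0.54 at an adjusted p of 0.000163). Col6a3 had 48.6, 81.0 and 5.96 CPM, against 2039, 1324 and 1421 CPM (log2 fold change of -5.15 ± 0.85 at an adjusted p of 0.00394). Every epidermal library lay far below every dermal one for each of the 3 chains. Of the fibril-associated genes, Col14a1 had 27.1, 57.9 and 21.1 CPM in epidermis, against 356, 295 and 286 CPM in dermis (log2 fold change of -3.15 ± 0.38 at an adjusted p of 0.000745). Col16a1, a minor component of skin fibrils, had 7.46, 20.8 and 8.34 CPM, against 341, 292 and 356 CPM (log2 fold change of -4.74 ± 0.42 at an adjusted p of 0.000188). Col9a1 and Col9a2, chains of the cartilage type IX collagen, were lower too, at 0, 1.48 and 0 CPM against 12.9, 8.10 and 29.4 CPM and at 0, 3.46 and 0.681 CPM against 15.6, 5.43 and 37.5 CPM, with E13 Het epidermis given before E13 Het dermis each time. Both are low and both calls depended on single libraries: Col9a1 was lost without dermal replicate 1 (adjusted p = 0.0699) or 3 (0.125) in a range of 0.000318 to 0.125, and Col9a2 without epidermal replicate 3 (0.134) or dermal replicate 1 (0.109), 2 (0.057) or 3 (0.228) in a range of 0.00369 to 0.228, each over 15 alternatives. Col23a1, a transmembrane collagen, had 0, 9.51 and 2.72 CPM in epidermis, against 201, 200.3 and 221 CPM in dermis (log2 fold change of -5.55 ± 0.88 at an adjusted p of 0.00325). Col26a1 had 1.13, 14.9 and 2.89 CPM in epidermis, against 705, 646 and 654 CPM in dermis (log2 fold change of -6.63 ± 0.82 at an adjusted p of 0.00119).

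Some members did not follow this direction. Col19a1 had the highest log2 fold change of the members tested, with 122, 154 and 79.2 CPM in E13 Het epidermis, against 1.68, 0.0862 and 4.41 CPM in E13 Het dermis (log2 fold change of 5.71 ± 0.91 at an adjusted p of 0.00338). Col4a5 had 125, 170.3 and 172 CPM in epidermis, against 94.3, 44.1 and 76.0 CPM in dermis (log2 fold change of 1.11 ± 0.28 at an adjusted p of 0.0165). Its call was lost without epidermal replicate 2 (0.0558) and barely kept without dermal replicate 3 (0.05 after rounding). Over 15 alternatives the adjusted p of Col4a5 ran from 0.00123 to 0.0558. Col4a6 had 20.6, 68.1 and 55.0 CPM in epidermis and 27.3, 11.5 and 20.6 CPM in dermis, with 1 epidermal library inside the dermal range (log2 fold change of 1.27 ± 0.49 at an adjusted p of 0.0755); it was called in 5 of 15 alternatives, with an adjusted p from 0.00488 without epidermal replicate 1 to 0.253. Col12a1 and Col8a1 were not called. Col12a1 had 605, 778 and 1105 CPM in epidermis and 1368, 690.3 and 1028 CPM in dermis (log2 fold change of -0.32 ± 0.29 at an adjusted p of 0.43). Col8a1 had 64.4, 62.1 and 95.2 CPM in epidermis and 117, 74.8 and 87.8 CPM in dermis (log2 fold change of -0.35 ± 0.25 at an adjusted p of 0.307). In both the tissues overlap, and a missed threshold does not show equal levels. Col11a1 had 47.7, 56.9 and 39.2 CPM in epidermis and 39.7, 14.8 and 62.2 CPM in dermis. Col2a1 had 17.6, 42.1 and 5.79 CPM in epidermis and 4.97, 1.72 and 14.7 CPM in dermis. Neither Col11a1 nor Col2a1 passed the test. Col4a2 had 261, 294 and 525 CPM in epidermis and 374, 308 and 324 CPM in dermis (log2 fold change of 0.09 ± 0.27 at an adjusted p of 0.834), whereas its partner Col4a1 was lower in epidermis, with 319, 358 and 459 CPM, against 749, 692 and 594 CPM in dermis (log2 fold change of -0.86 ± 0.19 at an adjusted p of 0.00888).

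Partner chains were compared by the ratio of their counts in the same library, which removes library scaling. These ratios are of counts without correction for transcript length, so only their change between groups can be read. Col4a1 over Col4a2 was 0.966, 1.06 and 0.980 in E13 KO epidermis and 1.22, 1.22 and 0.873 in E13 Het epidermis. It was 0.599, 0.638 and 1.07 in E9 Het epidermis and 2.0, 2.25 and 1.83 in E13 Het dermis. Every dermal ratio lies above every epidermal one. The 2 genes start head to head, with 21 bases between their start sites in the RefSeq table, and overlap by 85 bases, so reads in the overlap cannot be assigned with certainty. Col4a5 over Col4a6, whose starts lie 1343 bases apart on the X chromosome, was 2.37, 2.76 and 2.56 in E13 KO epidermis and 6.05, 2.50 and 3.12 in E13 Het epidermis. It was 1.65, 1.32 and 1.51 in E9 Het epidermis and 3.46, 3.84 and 3.68 in E13 Het dermis. All E13 ratios lie above all E9 ratios, and E13 Het replicate 1 is the highest of the 12. Col1a1 over Col1a2 was 0.954, 1.33 and 0.833 in E13 KO, 0.745, 1.35 and 0.566 in E13 Het and 0.842, 0.414 and 0.133 in E9 Het epidermis, and 0.953, 0.963 and 0.897 in E13 Het dermis. The E9 ratios all lie below the dermal ones, and the E13 epidermal ratios lie on both sides of them.

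**Figure D4:**
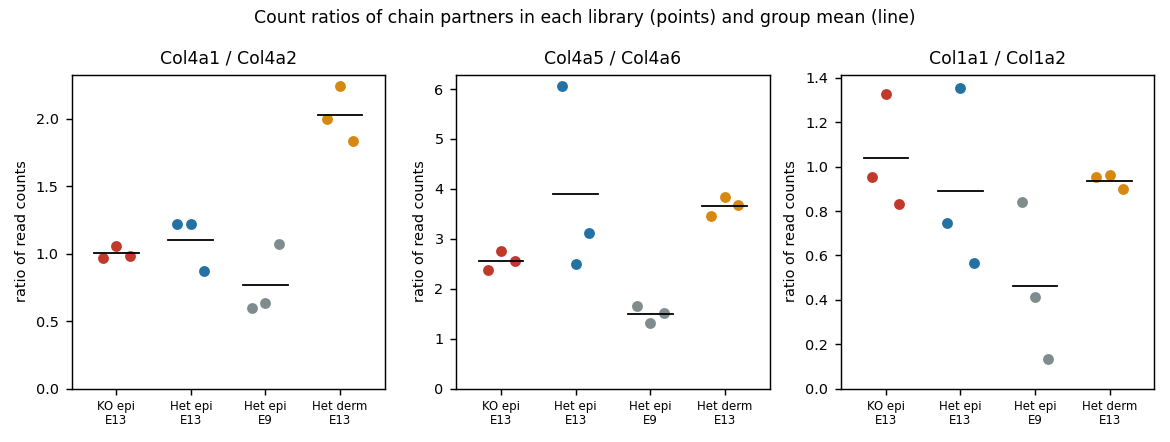
Ratio of read counts of 3 pairs of chain partners in each library, on linear axes that start at 0, with points for libraries and lines for group means. Col4a1 over Col4a2 is 1.83 to 2.25 in E13 Het dermis and at most 1.22 in any epidermal library; Col4a5 over Col4a6 is 1.32 to 1.65 in E9 Het epidermis and at least 2.37 elsewhere.

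Replicate 2 stood above its fellows in several dermal-type genes in both E13 epidermal groups. Col1a1 reached 470.2 CPM in E13 KO replicate 2 and 405 CPM in E13 Het replicate 2, against 40.9 to 139 CPM in the other 4 E13 epidermal libraries. Col6a3 reached 113 CPM in E13 KO replicate 2 and 81.0 CPM in E13 Het replicate 2, against 5.96 to 48.6 CPM in the other 4. The sort marker Pdgfra was highest in the same libraries within each group, at 89.3 CPM in E13 KO and 55.8 CPM in E13 Het. Col12a1 was not set apart in this way, with 638 CPM in KO and 778 CPM in Het replicate 2, inside the range of the other libraries of each group. The part of this in the Col1a1 and Col6a3 values was not tested. Col15a1, a multiplexin of vessel and muscle basement membranes, was at 50.2 CPM in E13 Het replicate 3, and between 0 and 5.77 CPM in the other 8 epidermal libraries.

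In all, 7 members did not pass the filter on low counts in the epidermal fit: Col10a1, Col13a1, Col22a1, Col28a1, Col4a4, Col6a4 and Col6a5. In the fit with dermis the 6 left out were Col10a1, Col28a1, Col4a3, Col4a4, Col6a4 and Col6a5. Col10a1, the chain of hypertrophic cartilage, had 3 reads over the E13 KO libraries, 1 over the E13 Het epidermal libraries and none over the E9 Het epidermal or E13 Het dermal libraries. A count of 0 over a group allows up to 0.176 CPM in E9 Het epidermis and 0.0528 CPM in E13 Het dermis, set by 3 counts and covering counting error only. Col4a3 had no read in E13 Het dermis and 59 in E13 Het epidermis, of which 57 were in replicate 3. The remaining tested members (Col5a3, Col6a6, Col9a3, Col11a2, Col20a1 and Col25a1 among them) had group means from 0.153 CPM to 20.8 CPM and were not called in the main fits. Some passed with DESeq2, such as Col6a6 for KO against E9 (adjusted p = 0.0103), where DESeq2 also called more genes in all than the main fit. For epidermis against dermis Col25a1 (0.0159) and Col20a1 (0.0358) passed with DESeq2.

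Genes that act on collagens were read from 4 lists: 22 for chain modification and folding, 15 for processing and crosslinking, 10 receptors and 9 proteases. Between E13 KO and E13 Het epidermis 3 were called in all, 1 of 21 tested modification genes, 1 of 8 receptors and 1 of 5 proteases, and none of 12 processing genes, against 2.20% of all genes tested. Leprel1, a prolyl 3-hydroxylase, fell to 2.27, 6.04 and 0 CPM in E13 KO epidermis, against 35.9, 48.2 and 23.8 CPM in E13 Het epidermis (log2 fold change of -3.64 ± 0.83 at an adjusted p of 0.0397). Itga2, the alpha chain of a collagen-binding integrin of keratinocytes, fell to 0.909, 1.48 and 0 CPM in KO, against 28.3, 43.7 and 30.1 CPM in Het (log2 fold change of -5.31 ± 1.26 at an adjusted p of 0.0404). Mmp16, a membrane-bound metalloproteinase, rose to 51.8, 54.2 and 50.5 CPM in KO, against 15.6, 18.2 and 4.94 CPM in Het (log2 fold change of 2.0 ± 0.47 at an adjusted p of 0.0386). The groups do not overlap for any of the 3, yet the calls of Itga2 and Mmp16 were lost on leaving out any 1 of the 6 libraries (highest adjusted p 0.216 and 0.145) and that of Leprel1 without 3 of them (0.215). Sparc, a collagen-binding matrix protein, had 556, 473 and 438 CPM in KO and 439, 469.6 and 567 CPM in Het (log2 fold change of -0.02 ± 0.18 at an adjusted p of 0.991).

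From E9 to E13 in Het epidermis, 2 of 21 modification genes fell, 2 of 12 processing genes rose and 3 of 8 receptors rose, with none of 5 proteases called; over all genes tested 4.77% rose and 2.53% fell. Serpinh1, the collagen chaperone Hsp47, fell to 279.6, 336 and 371 CPM at E13, against 584, 499.5 and 633 CPM at E9 (log2 fold change of -0.79 ± 0.15 at an adjusted p of 0.00414). Fkbp10, a prolyl isomerase, fell to 19.9, 13.8 and 20.9 CPM at E13, against 40.8, 59.2 and 56.6 CPM at E9 (log2 fold change of -1.51 ± 0.32 at an adjusted p of 0.01; 0.0607 without E9 Het replicate 2). Sparc rose to 439, 469.6 and 567 CPM at E13, against 131, 112 and 190.3 CPM at E9 (log2 fold change of 1.77 ± 0.19 at an adjusted p of 4.64e-05). Ddr1, a collagen receptor kinase, rose to 305, 245 and 379 CPM at E13, against 107, 116 and 102 CPM at E9 (log2 fold change of 1.52 ± 0.19 at an adjusted p of 0.000143). All E13 libraries lie above all E9 libraries for Sparc and Ddr1 and below them for Serpinh1 and Fkbp10. Itga2 rose to 28.3, 43.7 and 30.1 CPM at E13, against 0, 1.41 and 0 CPM at E9 (adjusted p = 0.0111; 0.0674 without E13 Het replicate 2). Lox, which crosslinks fibrils, had 7.01, 27.0 and 3.75 CPM at E13, against 0.993, 0 and 0 CPM at E9 (adjusted p = 0.0281, lost without 3 of the 6 libraries, highest 0.131). Itga11, a fibroblast collagen receptor chain, had 2.71, 7.16 and 3.75 CPM at E13 and no count at E9 (adjusted p = 0.0463, lost without 5 of the 6, highest 0.141). KO at E13 set against the same E9 libraries gave 2 of 21 modification genes lower (3.05% of all genes were lower), and 2 of 12 processing genes, 2 of 8 receptors and 1 of 5 proteases higher (4.62% of all genes were higher). Of these 7 calls, those of Serpinh1 (without 4 of the 6 libraries), Leprel1 (3), Lox (2), Ddr1 (3) and Itga11 (5) were lost when single libraries were left out, and those of Sparc and Mmp16 were not.

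Against E13 Het dermis, E13 Het epidermis was lower for 15 of 22 modification genes and higher for 1, lower for 10 of 13 processing genes, lower for 5 and higher for 2 of 8 receptors, and lower for 4 and higher for 1 of 5 proteases, where 18.2% of all genes were lower and 16.5% higher. The median log2 fold changes were -1.72, -3.22, -1.60 and -1.62, against -0.13 over all genes tested. Serpinh1 had 279.6, 336 and 371 CPM in epidermis, against 2212, 2104 and 2063 CPM in dermis (log2 fold change of -2.71 ± 0.18 at an adjusted p of 4e-05). Lox had 7.01, 27.0 and 3.75 CPM in epidermis, against 740.5, 420.1 and 597 CPM in dermis (log2 fold change of -5.50 ± 0.74 at an adjusted p of 0.00167). Ctsk, a collagen-cleaving cathepsin, had 4.07, 6.18 and 4.94 CPM, against 102, 248 and 119.9 CPM (log2 fold change of -4.96 ± 0.44 at an adjusted p of 0.000136). The 2 higher receptors were Ddr1, at 305, 245 and 379 CPM in epidermis, against 47.7, 40.4 and 35.0 CPM in dermis (log2 fold change of 2.90 ± 0.21 at an adjusted p of 5.89e-05), and Itga2, at 28.3, 43.7 and 30.1 CPM, against 0.404, 0.345 and 0 CPM (log2 fold change of 7.16 ± 1.02 at an adjusted p of 0.00121). Itga11 was lower, at 2.71, 7.16 and 3.75 CPM in epidermis, against 112, 59.8 and 56.3 CPM in dermis (log2 fold change of -4.03 ± 0.46 at an adjusted p of 0.000445).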

How the data were processed

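RNA of 12 sorted-cell libraries was analysed. The deposited files hold whole-number counts per gene symbol, 1 file per library, which the authors made with TopHat2, Bowtie2, HTSeq and the mm10 build, per the submitters' processing notes. For the strand setting of the counting, nothing is given in the sources used here. Per the labels' protocols, the kits were SMARTer and NEBNext directional. The 5 summary lines of each file (48.8% to 63.8% of entries in epidermal and 20.2% to 21.6% in dermal files) were left out. The chromatin libraries of the series were not used here.

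The 3 epidermal comparisons came from 1 fit of 9 libraries and the tissue comparison from another of 6. Both used the quasi-likelihood test of edgeR 4.0.16 under R 4.3.3, with robust dispersions, TMM factors and the filterByExpr filter. Calls needed a Benjamini-Hochberg adjusted p under 0.05 across every gene tested. A standard error is |log2 fold change| divided by the root of the F statistic. Limma 3.58.1 and DESeq2 1.42.0 were alternatives. Printed CPM were computed from the counts with TMM factors of all 12 libraries. The procedure was tested on simulated data. No pair of replicates was alike within sampling noise (chi-square divided by its degrees of freedom was 16.1 to 239).

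Named were collagen genes called in at least 1 comparison or averaging 50 CPM or more in any group. From each other list, up to 4 genes with the smallest adjusted p per comparison were candidates. Only some of these candidates are given here, and that choice and other genes were picked after their values were seen. The members, lists and tests were chosen with earlier results of these data known. Positions and promoter windows come from RefSeq (GRCm38.p6), where all 41 members matched. Col10a1, Col27a1, Col4a1, Col4a2, Col4a3, Col4a4 and Col9a3 overlap another counted gene, so their counts are uncertain.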

Additional observations from a re-analysis of the deposited data

How the results depend on the processing

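In the epidermal comparisons, numbers of called genes varied more with the test than with the scaling. For epidermis against dermis, scaling by raw library totals moved calls from lower to higher, as given above. Between E13 KO and E13 Het epidermis 287 genes and 0 collagen genes were called; DESeq2 called 811 and 3, limma voom 656 and 2, no filter 2 collagen genes, all 12 libraries in 1 fit 1, and leaving out replicate 2 of both groups (chosen after seeing the data) 148 and 1. Leaving out single libraries gave 182 (without E13 KO replicate 1) to 348 genes and 0 to 1 collagen genes. For E13 against E9 Het epidermis (952 and 6), DESeq2 called 1997 and 10 and limma voom 1729 genes; single libraries left out gave 569 (without E9 Het replicate 2; 597 without replicate 1) to 812 genes and 5 to 7 collagen genes. For E13 KO against E9 Het epidermis (1001 and 7), DESeq2 called 2172 and 12, limma voom 2575 genes and the fit without both replicates 2 647; single libraries left out gave 557 (without E9 Het replicate 2; 606 without E9 Het replicate 1, 592 without E13 KO replicate 1) to 815 genes and 5 to 7 collagen genes. For E13 Het epidermis against dermis (4504 and 19), single libraries left out gave 2934 (without dermal replicate 3) to 5269 genes and 16 to 23 collagen genes.

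The main fits did not treat replicate numbers as pairs. Over 15 same-numbered pairs, correlations of deviations ran from -0.0658 to 0.198, the highest between replicate 2 of E13 Het and of E13 KO epidermis. Pairs with different numbers ran from -0.103 to 0.0775, so pairing of those replicates 2 is not excluded. With a replicate block, 286 genes and 1 collagen gene (Col27a1, adjusted p = 0.0409) were called for KO against Het, 576 and 7 for E13 against E9, 540 and 8 for KO against E9 (Col5a2 being lost there at an adjusted p of 0.0513) and 3464 and 17 for epidermis against dermis. E9 Het replicate 4 shares its number with no other library, so the epidermal block fit in effect leaves it out. Col12a1 for E13 against E9 had a log2 fold change of 7.07 with the block and 7.14 without that library, against 4.84 in the main fit. The block fits against E9 therefore do not check pairing alone.

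No collagen gene called in the 4 comparisons changed direction under any alternative run, and the cause of the shifts was not tested. Depth limits the low members. A count of 0 over the 3 libraries of a group still allows up to 0.163 to 0.176 CPM in epidermis or 0.0528 CPM in dermis. The common biological coefficient of variation (0.571 among epidermal libraries and 0.506 with dermis) bounds the changes that could be called.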
